A study of Mus musculus with 26 samples.

Results

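The genes described here are the nuclear genes of oxidative phosphorylation, chosen by symbol. They are those beginning with Ndufa, Ndufb, Ndufc, Ndufs, Ndufv, Uqcr, Cox4i, Cox5, Cox6, Cox7, Cox8 or Atp5, together with Sdha to Sdhd and Cyc1. Of 18193 genes that the arrays name through a probe set with a single symbol, 91 met the rule, and each was read on its brightest probe set. They comprise 6 core and 28 accessory subunits of complex I, 8 complex I assembly factors that the prefix Ndufa also takes in, 4 subunits of complex II, 9 of complex III, 19 of complex IV and 17 of the ATP synthase. The last group is called complex V, and Ndufa4 and Ndufa4l2 are counted with complex IV. A filter on dim probe sets (signal above the median of the array on at least 2 of 26 arrays) left 86 of the 91 genes and 12580 genes in all for testing. The 5 genes that did not pass were Ndufb4, Cox6b2, Cox7a1, Cox7b2 and Cox8b.

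Complexes I and II pass electrons from NADH and succinate to ubiquinone, complex III passes them to cytochrome c, and complex IV passes them to oxygen. Complexes I, III and IV pump protons out of the matrix, and the ATP synthase lets them flow back to make ATP. In pancreatic beta cells the ATP made from glucose closes potassium channels and starts insulin secretion, so that this pathway links glucose to the hormone. The complexes are built from nuclear and mitochondrial genes, and only the nuclear ones are described here.

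Islets came from male C57BL/6J mice, which the labels give as C57BL6 or C57/Bl6J, aged 5 weeks (young) or 56 weeks (old), with no allele or transgene named. Islets of both ages were studied fresh or after culture, which was 1 day of recovery in 11 mM glucose and a further 2 days in 3, 5.5 or 11 mM (16 mM was used for young islets alone). A time course of young islets began after a night at 3 mM (0 h) and went on for 1 h or 4 h at 11 mM, without islets left at 3 mM for the same hours, so that glucose and hours cannot be told apart there. There were 26 arrays in 12 groups, 4 of young islets at 11 mM and 2 of each other group. Titles describe the replicates as biological but leave unsaid whether several mice went into one sample, and the p-values below rest on how far such samples differ.

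The arrays fell into 2 sets by the Gapdh control, whose probe set at the 5' end was read against that at the 3' end to see how complete the labelled RNA was. The ratio was 1.03 to 1.48 on 12 arrays (set A, which holds every old group, fresh young islets and 2 of the 4 young arrays at 11 mM, replicates 3 and 4) and 0.1 to 0.277 on the other 14 (set B). Each comparison of groups below therefore lies within a single set, while a difference between the ages in the change from 3 to 11 mM sets old changes in set A against young changes in set B. Young islets at 11 mM were read on replicates 1 and 2 against other cultured young islets and on replicates 3 and 4 against fresh or old islets. Within the single condition of young islets at 11 mM, 27 of the 86 genes differed by over 0.5 on the log2 scale between the sets, 14 with higher and 13 with lower signal in set A. The widest gaps were those of Uqcr10 (2.52), Atp5l (2.23), Ndufs5 (2.17), Cox8a (2.13) and Ndufa4 (1.60), all higher in set A, so levels of these genes cannot be set side by side across the sets. The 9 beta cell markers were above the array median in every group. The islets are bulk samples, in which fewer cells of a type and less RNA per cell cannot be told apart.

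Promoter sequence was available for 74 of the 91 genes in a RefSeq table of build GRCm38.p6, which covers 250 bases before and 50 after each start. It was searched on both strands for 3 short motifs of factors known to bind promoters of respiratory chain genes. They are GCGCATGC, the core of the NRF1 site, CCGGAA, the core of the ETS site that GABP binds, and AAGATGGC, the core of the YY1 site. The NRF1 core occurred in 11 of the 74 genes (14.9%) and in 3.05% of all 27025 genes of the table. The ETS core occurred in 28 of the 74 (37.8%) and in 16.7% of all genes, and the YY1 core in 10 (13.5%) and in 3.19%. The letters of none of these motifs contain those of another, a match is a description and not a measured site, and no binding was measured here. Of the 74 genes, 40 held any of the 3 motifs in the stretch searched. Of the 12 genes lower at 11 than at 3 mM glucose at both ages (below), 9 had a promoter in the table. Of these 9, 6 held a match that ends before the start. Whether matches were more frequent in them than in the 74 genes was not tested. The next stretches show the matches of these 6 genes that end before the start. Each runs 5′ to 3′ on the strand of its gene, with the match in capitals (GCGCATGCGC holds the NRF1 core on both strands, and TTCCGGAA the ETS core on both strands) and up to 12 bases of sequence on either side.
Ndufaf4, chr4:24897958-24897991, plus strand, NRF1 core ending 103 bases before the start: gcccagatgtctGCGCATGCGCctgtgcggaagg
Atp5g2, chr15:102671068-102671101, minus strand, NRF1 core ending 32 bases before the start: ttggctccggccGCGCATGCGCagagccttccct
Ndufa8, chr2:36049339-36049358, minus strand, NRF1 core ending at the start: gtcgctggagacGCATGCGC
Ndufs7, chr10:80249411-80249440, plus strand, ETS core ending 20 bases before the start: gttggactagaaCCGGAActctttggagga
Ndufa10, chr1:92473853-92473884, minus strand, ETS core ending 106 bases before the start: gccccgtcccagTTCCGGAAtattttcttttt
Ndufaf8, chr11:120098914-120098933, plus strand, ETS core ending 2 bases before the start: acgcgttcgactCCGGAAga

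The 100 bases before the start are shown for the genes with the 3 largest rises and the 3 largest falls in the comparison that called most genes, old islets at 3 mM against fresh old islets. None of the 3 motifs was found in these windows, so they hold no capitals, and that says only that the letters are not there. Outside the windows, the longer stretch searched above held the ETS core in Atp5md and Ndufs8 and the NRF1 core in Ndufaf4.
Atp5md (rose), chr19:47090648-47090747, minus strand: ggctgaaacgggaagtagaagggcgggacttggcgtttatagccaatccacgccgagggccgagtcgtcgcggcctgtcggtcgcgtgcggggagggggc
Ndufb10 (rose), chr17:24724424-24724523, minus strand: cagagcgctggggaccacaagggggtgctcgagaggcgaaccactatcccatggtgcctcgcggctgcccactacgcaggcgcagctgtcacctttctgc
Ndufaf4 (rose), chr4:24897983-24898082, plus strand: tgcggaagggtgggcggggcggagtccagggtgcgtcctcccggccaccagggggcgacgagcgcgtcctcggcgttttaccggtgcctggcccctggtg
Ndufa4 (fell), chr6:11907451-11907550, minus strand: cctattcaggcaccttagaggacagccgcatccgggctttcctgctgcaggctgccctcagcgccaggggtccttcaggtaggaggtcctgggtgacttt
Ndufs8 (fell), chr19:3912775-3912874, minus strand: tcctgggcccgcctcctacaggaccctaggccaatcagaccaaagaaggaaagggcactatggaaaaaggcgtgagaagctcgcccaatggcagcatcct
Ndufa1 (fell), chrX:37191239-37191338, minus strand: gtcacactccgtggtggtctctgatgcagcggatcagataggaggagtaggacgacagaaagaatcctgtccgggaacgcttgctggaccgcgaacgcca

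Signals below are the deposited intensities of single arrays. Changes are differences of log2(signal + 16) with limma's standard error (SE), and a gene is said to rise or fall where its Benjamini-Hochberg adjusted p in limma, over all 12580 genes of a comparison, is under 0.05. The offset makes the change of dim genes smaller than their change in signal.

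The first question was how these genes follow the glucose concentration in cultured young islets. At 11 mM, 5 of the 86 genes were higher than at 3 mM and 21 were lower (5.81% and 24.4%), against 13.3% higher and 13.1% lower among all genes tested. Their median change was -0.16, while that of all genes was 0.05. At 16 mM, 13 were higher and 15 lower (15.1% and 17.4%), against 14.5% and 14.2% of all genes, and the median change was -0.01, or -0.05 under quantile normalization. The share of lower genes was thus above that of all genes at 11 mM, and both shares were near those of all genes at 16 mM. At 5.5 mM, 1 gene was higher and 4 were lower, against 2.97% and 3.08% of all genes. These comparisons share the arrays of young islets at 3 mM, so their values are given side by side and not as independent evidence.

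The largest falls at 11 and 16 mM were those of Ndufaf4, Ndufa6 and Ndufs7, all counted here with complex I. Of its 6 core subunits, 1 fell and 2 rose at 16 mM. Ndufaf4, an assembly factor that acts early in building complex I, gave signals of 857 and 894 at 3 mM, 431 and 436 at 5.5 mM, 312 and 338 at 11 mM, and 378 and 375 at 16 mM. Among young islets cultured for 2 days its arrays at 3 mM lay above all others, and those of replicates 1 and 2 at 11 mM were the lowest of array set B. The change was -0.99 at 5.5 mM (SE 0.12, adjusted p = 0.000101), -1.39 at 11 mM (SE 0.12, adjusted p = 8.47e-08) and -1.18 at 16 mM (SE 0.12, adjusted p = 5.5e-07). A second, dimmer probe set of the gene gave 0.15 at 5.5 mM, -0.33 at 11 mM and -0.25 at 16 mM, and with the mean of both probe sets the changes were -0.42, -0.86 and -0.72, all of which passed. Ndufs7, a core subunit with an iron-sulfur cluster near the ubiquinone site, gave 2493 and 2706 at 3 mM, 1898 and 1804 at 5.5 mM, 1553 and 1294 at 11 mM and 1554 and 1347 at 16 mM. The groups at 3 and 5.5 mM overlapped with no other, while those at 11 and 16 mM overlapped each other. It fell by 0.87 at 11 mM (SE 0.11, adjusted p = 9.37e-06) and by 0.84 at 16 mM (SE 0.11, adjusted p = 9.77e-06), and its second probe set gave -0.78 and -0.82.

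Accessory subunits of complex I followed, 8 of 27 lower and 1 higher at 11 mM, and 7 lower and 3 higher at 16 mM. Ndufa6, a subunit of the matrix arm, gave 2317 and 2287 at 3 mM, 2088 and 2273 at 5.5 mM, 1370 and 1101 at 11 mM and 1274 and 1039 at 16 mM. It was high at both low concentrations and low at both high ones, with changes of -0.90 (SE 0.12) at 11 mM and -0.99 (SE 0.12) at 16 mM. Ndufa5 of the matrix arm gave 2600 and 2754 at 3 mM, 1806 and 2070 at 5.5 mM, 1528 and 1619 at 11 mM and 1599 and 1473 at 16 mM, and had already fallen at 5.5 mM (-0.47, SE 0.09, adjusted p = 0.0065). Ndufb10, of the membrane arm, gave 1564 and 1364 at 3 mM, 894 and 815 at 11 mM and 977 and 885 at 16 mM. Its arrays at 3 mM stood apart from both groups, and it fell by 0.76 and 0.64 (SE 0.13 for each). Ndufa10, Ndufa8, Ndufb9 and Ndufb5 also fell at both concentrations, by 0.45 to 0.64 at 11 mM and by 0.31 to 0.63 at 16 mM, but with the mean of its 2 probe sets, of which 1 was dim, Ndufa10 gave -0.04 at 16 mM and did not pass. Ndufaf8, which helps to build the complex, fell by 0.57 and 0.59.

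At 11 mM the genes that fell were 3 of 9 of complex III and 4 of 17 of the ATP synthase. In complexes II and IV they were 1 of 4 and 1 of 15. Among complex I genes they were 2 of 6 core subunits, 8 of 27 accessory subunits and 2 of 8 assembly factors. Cyc1, cytochrome c1 of complex III, gave 2431 and 1961 at 3 mM, 1595 and 1332 at 11 mM and 1669 and 1472 at 16 mM, and fell by 0.58 (SE 0.14, adjusted p = 0.00354) and by 0.47 (SE 0.14, adjusted p = 0.012). Uqcr11, the smallest subunit of complex III, fell at all 3 concentrations, with changes of -0.54, -0.79 and -0.52 (SE 0.14 for each). Complex III had no gene higher at 11 mM, and all 9 of its changes were below 0. Uqcr10, also of complex III, fell by 0.49 at 11 mM on its brightest probe set, while the other 2 probe sets of the gene gave -1.71 and -1.89 and were chosen for mention after their values were seen. Of the ATP synthase, Atp5g2, a gene for the rotating c ring, fell by 0.66 and 0.68 (SE 0.11 for each), Atp5mpl by 0.49 and 0.53, and Atp5c1, the central stalk, by 0.56 and 0.40. With the mean of its 3 probe sets, of which 2 were dim, the changes of Atp5g2 were -0.21 and -0.20 and no longer passed. Cox4i1, the ubiquitous form of subunit IV, was the gene of complex IV that fell at 11 mM (4010 and 4339 at 3 mM, 3329 and 3230 at 11 mM, change -0.35, SE 0.11), and Sdhb, the iron-sulfur subunit of complex II, went from 1642 and 1644 to 1296 and 1280 (-0.35, SE 0.10, and -0.17 with both array sets at 11 mM as a single group, which did not pass).

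Fewer genes rose. Ndufa1, a small subunit of the complex I membrane arm encoded on the X chromosome, gave 4557 and 5549 at 3 mM, 5252 and 6059 at 5.5 mM, 6879 and 7132 at 11 mM and 7606 and 10616 at 16 mM. The 4 arrays at 11 and 16 mM were all above the 4 at the lower concentrations, with changes of 0.48 (SE 0.13, adjusted p = 0.0102) and 0.84 (SE 0.13, adjusted p = 7.57e-05). Ndufa4, once counted with complex I and now with complex IV, gave 525 and 495 at 3 mM, 653 and 654 at 5.5 mM, 610 and 808 at 11 mM and 798 and 939 at 16 mM. It rose by 0.45 at 11 mM (SE 0.12, adjusted p = 0.00877) and by 0.75 at 16 mM (SE 0.12, adjusted p = 0.000104), and the first change was 0.25 and not called when replicate 2 of the 11 mM group was left out. At 16 mM 5 genes of the ATP synthase rose, among them Atp5g3, a second gene for the c ring (0.54, SE 0.13), Atp5h of the peripheral stalk (0.38, SE 0.11) and Atp5a1, the alpha subunit (0.40, SE 0.10). Another bright probe set of Atp5a1 gave -0.02 at 16 mM and -0.20 at 11 mM, where the chosen one gave 0.32. With the mean of their probe sets Atp5a1 (0.09 at 11 mM and 0.25 at 16 mM) and Atp5h (0.21 at 16 mM) did not pass, and Atp5a1 gave 0.08 at 11 mM with both array sets as a single group. Sdhc, a membrane anchor of complex II, gave 568 and 467 at 3 mM, 658 and 642 at 11 mM and 725 and 706 at 16 mM, and rose by 0.33 and 0.46 (SE 0.12 for each), although the first value was -0.09 where both array sets at 11 mM were fitted as a single group. Ndufs1, the largest core subunit of complex I, and Uqcrq of complex III rose at 16 mM (0.39 and 0.55), and Uqcrq gave 0.07 there with the mean of its probe sets and 0.32 without replicate 2 of young islets at 16 mM, neither of which passed. Ndufc2 rose by 0.46 at 16 mM, and by 0.17 and 0.75 when one or the other array of that group was left out.

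**Figure D1:**
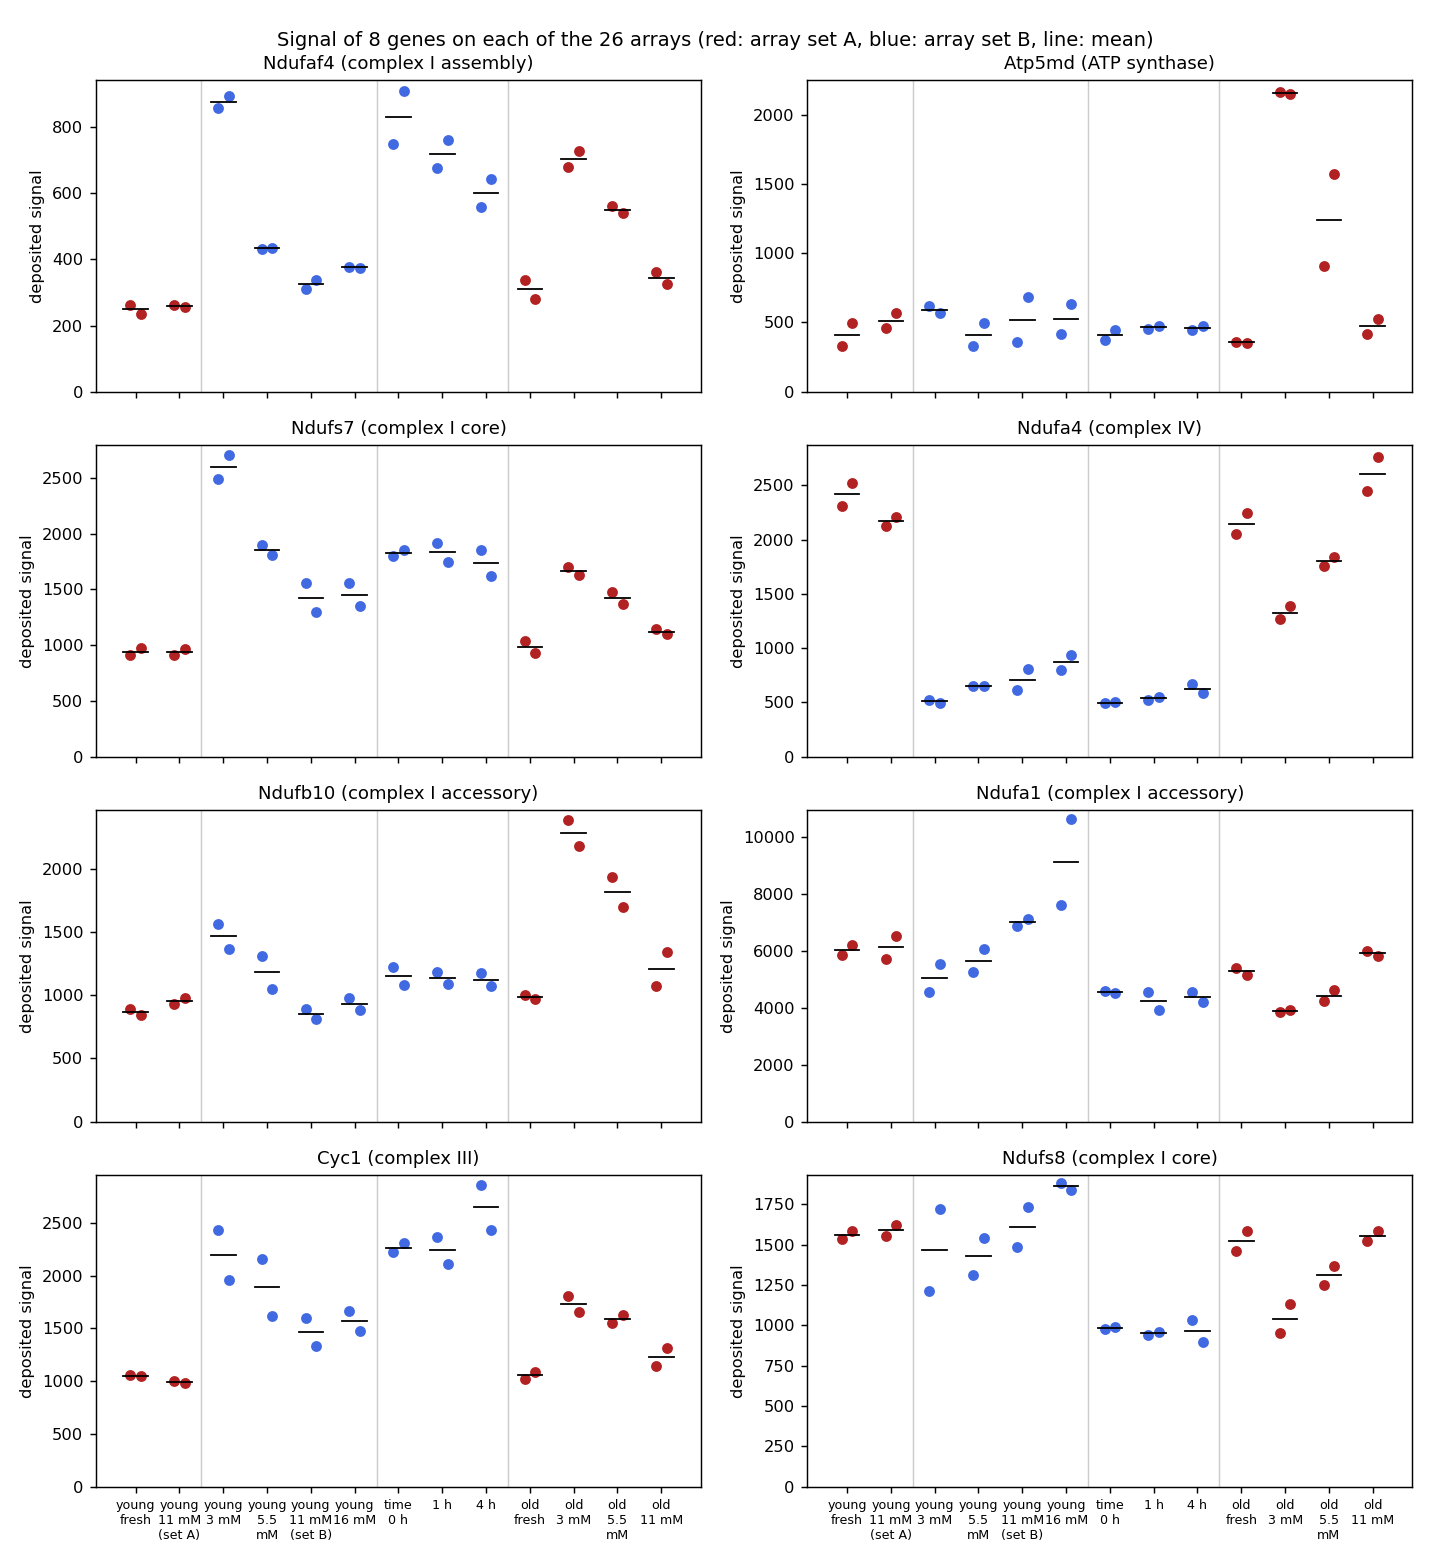
Deposited signal (linear axis from 0) of 8 genes on each of the 26 arrays by group, with a line at each group mean; red points are arrays of set A and blue points arrays of set B, whose levels are not comparable. Ndufaf4, Ndufs7, Ndufb10 and Cyc1 were highest at 3 mM among the islets of their set that were cultured for 2 days, Atp5md stood apart only in old islets at 3 mM (2163 and 2154) and 5.5 mM, and Ndufa4, Ndufa1 and Ndufs8 were lowest at 3 mM among old islets.

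At 5.5 mM the genes that passed were Ndufaf4, Ndufa5, Ndufs7 and Uqcr11 (lower) and Sdhd, the other membrane anchor of complex II (844 and 760 at 3 mM, 1145 and 949 at 5.5 mM, change 0.37, SE 0.11, adjusted p = 0.0418). With the replicate number as a block 8 genes passed, adding Ndufa4 (0.35), Ndufb9 (-0.31) and Atp5g1 (-0.39). The count at 5.5 mM was 1 when replicate 2 at 3 mM was left out, and 2 or 3 when replicate 1 or 2 at 5.5 mM was. Of the genes named here, Ndufs7, Ndufa5, Ndufa6, Uqcr11 and Ndufaf4 kept their call at 11 mM whichever array was left out, while Cyc1, Ndufa1, Ndufa4, Sdhb, Cox4i1 and Sdhc lost it without replicate 2 at 11 mM and Atp5a1 without replicate 1 there. At 16 mM Cyc1, Uqcrq, Atp5g3, Atp5h and Ndufc2 lost it without replicate 1 at 3 mM or replicate 2 at 16 mM, Uqcr11, Atp5mpl and Ndufs1 without replicate 2 at 3 mM or replicate 1 at 16 mM, and Sdhc without replicate 2 at 3 mM. At 11 mM, leaving out replicate 2 of the 3 mM group gave a count of 17 in place of 26, and leaving out replicate 2 of the 11 mM group gave 16. At 16 mM the count of 28 became 18 without replicate 1 at 3 mM, and 16 where young islets at 11 mM were fitted as a single group over both array sets.

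Between 16 and 11 mM, limma called 0 of the 86 genes and 0.00795% of all genes. An unadjusted p under 0.05 in limma was found for 22 of the 86 and 1062 of all 12580 genes. The changes were above 0 for 70 of the 86, with a median of 0.14, while the median of all genes was -0.02. Under quantile normalization the median of the 86 was 0.08. With the replicate block 3 of the 86 genes and 102 of all 12580 passed in limma. The 3 were Atp5g1, another c ring gene (601 and 710 at 11 mM, 1005 and 1201 at 16 mM, change 0.74, SE 0.12, adjusted p = 0.0111), Uqcrq (0.57) and Atp5e of the central stalk (0.39).

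Markers of cell types and other mitochondrial genes also differed with glucose in the same islets. Of 9 beta cell markers, 5 rose at 11 mM and 6 at 16 mM, and none fell. Their changes ranged from -0.55 (Ins2) to 2.26 at 11 mM and from 0.05 (Ins2) to 2.73 at 16 mM. Their summed signal was 19121 to 21587 at 3 mM, 32592 to 37510 at 11 mM and 39808 to 44951 at 16 mM. Of 8 acinar markers 1 fell at each concentration, and their sum was 464 to 641, 733 to 831 and 594 to 938. The part of these shifts in the changes above was not tested. Of 76 genes of the mitochondrial ribosome, 39 fell at 11 mM and 33 at 16 mM (1 rose at 16 mM). Of 23 tested assembly genes of complexes III and IV, 7 fell at 11 mM and 9 at 16 mM (1 rose), led by Surf1, a complex IV assembly gene, with -1.20 and -1.07 (SE 0.12 for each). Of 17 genes of pyruvate dehydrogenase and the TCA cycle, 4 rose and 3 fell at 11 mM, with Fh1, fumarase, at 1.11 (SE 0.12) and Idh3b at -0.72 (SE 0.10). Among 14 regulators 3 fell at 11 mM and 5 at 16 mM. Nrf1, whose product binds the first motif above, gave 365 and 372 at 3 mM, 338 and 314 at 5.5 mM, 113 and 128 at 11 mM and 94 and 86 at 16 mM, with changes of -1.50 and -1.86 (SE 0.14 for each). Yy1, whose product binds the third motif, fell by 0.81 and 0.86 (SE 0.13 for each).

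Old islets were compared in the same way. At 11 mM, 8 of the 86 genes were higher than at 3 mM and 15 were lower (9.30% and 17.4%), against 13.9% and 10.6% of all genes. The median change was -0.02, and that of all genes 0.04. The share of lower genes was again above that of all genes, and the share of higher genes below it. Ndufaf4 gave 681 and 728 at 3 mM, 562 and 539 at 5.5 mM and 363 and 326 at 11 mM, with no overlap between the groups, and fell by 1.00 at 11 mM (SE 0.12, adjusted p = 6.99e-06), or by 0.52 with the mean of both probe sets. Ndufb10 gave 2387 and 2181, 1934 and 1693, and 1074 and 1339 in the same order, and fell by 0.92 (SE 0.13, adjusted p = 3.18e-05). Ndufs7 gave 1703 and 1630, 1476 and 1369, and 1143 and 1099, and fell by 0.57 (SE 0.11, adjusted p = 0.000728). On these probe sets the 3 genes were lower at each higher concentration, although at 5.5 mM their changes did not pass. The second probe set of Ndufaf4 gave 0.52 at 5.5 mM and -0.04 at 11 mM.

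Atp5md, a small membrane subunit of the ATP synthase, had the largest changes of the 86 genes in old islets. It gave 2163 and 2154 at 3 mM, 911 and 1574 at 5.5 mM and 414 and 528 at 11 mM, and 361 and 350 in fresh old islets. It fell at 11 mM with a change of -2.17 (SE 0.27, adjusted p = 1.16e-05), and the change at 5.5 mM was -0.84 (SE 0.27, adjusted p = 0.0803). In cultured young islets it gave 617 and 570 at 3 mM, 330 and 495 at 5.5 mM, 362 and 681 at 11 mM and 414 and 631 at 16 mM, which overlapped between 3 and 11 mM, with a change of -0.25 (SE 0.27, adjusted p = 0.55) at 11 mM. Old minus young, the change at 11 against 3 mM differed by -1.92 (SE 0.38, adjusted p = 0.0469). Of the 86 genes it alone was past the threshold for that difference, where 0.143% of all genes passed. The call was lost under 5 of 8 other settings and without each array of the 4 groups except replicate 1 of young islets at 11 mM, and over all of these the adjusted p in limma was 0.0037 to 0.226. The old arrays lie in set A and these young arrays in set B, so age and array set cannot be told apart in this difference. The gene had a single probe set with 1 symbol.

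Most other genes that fell were those of young islets. Of the 21 genes lower in young islets at 11 mM and the 15 lower in old islets, 12 were the same (57.1% of the former and 80.0% of the latter). The 12 were the complex I genes Ndufs7, Ndufa5, Ndufa8, Ndufa10, Ndufb5, Ndufb9 and Ndufb10, the assembly factors Ndufaf4 and Ndufaf8, Cyc1, Atp5g2 and Atp5mpl. Over all genes tested, 885 were lower at both ages, which is 53.7% of the young and 66.2% of the old list. Among higher genes 3 were shared of 5 and 8 (60.0% and 37.5%), namely Ndufa1, Ndufa4 and Atp5a1, against 62.8% and 59.9% over all genes. No gene of the 86 was called in opposite directions, a count that was not made over all genes. These comparisons share no array. Ndufa6 gave 2723 and 2621 at 3 mM and 2093 and 2180 at 11 mM in old islets, with a change of -0.32 (SE 0.12, adjusted p = 0.0547), against -0.90 in young islets, and the difference of 0.58 between the ages did not pass (SE 0.17, adjusted p = 0.203). Uqcr11 had a change of 0.03 in old islets, and its difference from young islets, 0.81, did not pass (SE 0.20, adjusted p = 0.107).

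**Figure D2:**
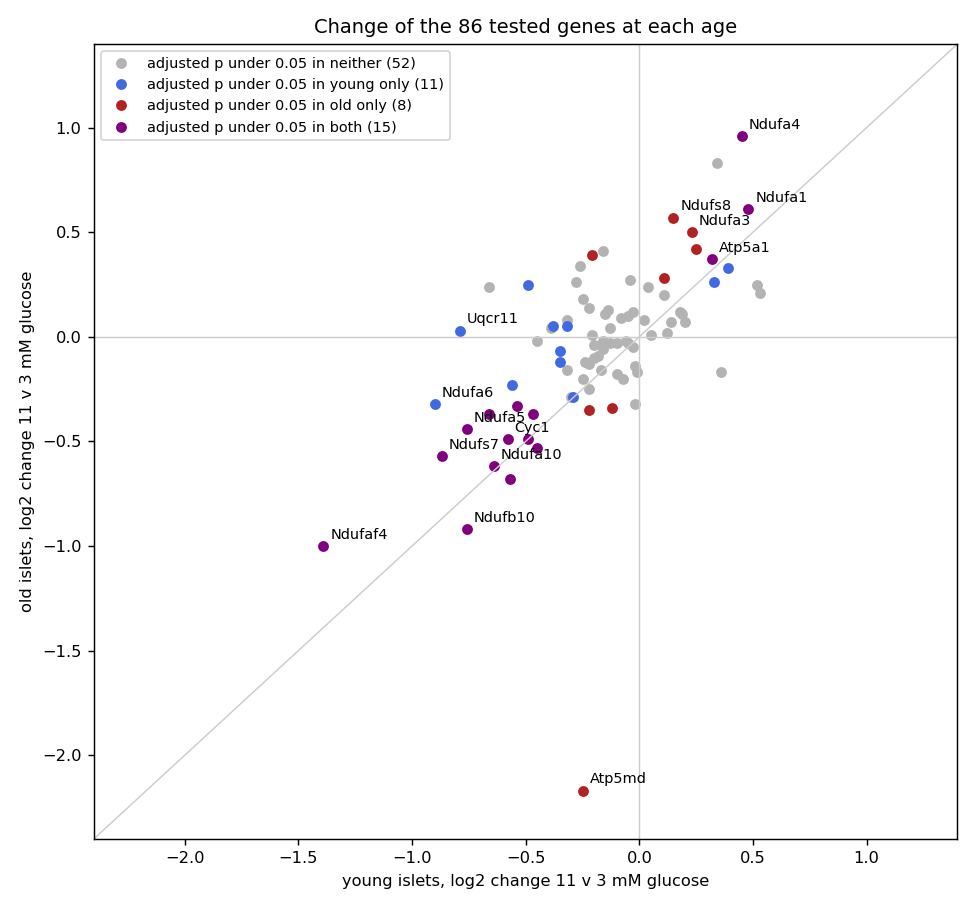
Change of each of the 86 tested genes (difference of log2(signal + 16)) between 11 and 3 mM glucose in young islets (horizontal axis) and old islets (vertical axis), coloured by the comparison in which the adjusted p in limma was under 0.05; the diagonal marks equal changes. Of the 86 genes, 15 passed at both ages, 11 in young islets alone and 8 in old islets alone; Atp5md lies far below the diagonal at -2.17 in old and -0.25 in young islets.

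The genes that rose in old islets were led by Ndufa4, which gave 1264 and 1387 at 3 mM, 1757 and 1844 at 5.5 mM and 2444 and 2761 at 11 mM. The groups did not overlap, and it rose by 0.44 at 5.5 mM (SE 0.12, adjusted p = 0.0393) and by 0.96 at 11 mM (SE 0.12, adjusted p = 1.2e-05). The change at 11 mM did not pass where young islets at 11 mM were fitted as a single group (adjusted p = 0.11). Ndufa1 gave 3837 and 3910, 4227 and 4618, and 6005 and 5811, and rose by 0.61 (SE 0.13). Ndufs8, a core subunit with 2 iron-sulfur clusters, gave 951 and 1131, 1250 and 1367, and 1522 and 1581, and rose by 0.57 (SE 0.13, adjusted p = 0.00356). Its 5 other probe sets gave changes of 0.25 to 0.83. Ndufa3 (0.50) and 4 genes of the ATP synthase, Atp5g3 (0.42), Atp5l (0.39), Atp5a1 (0.37) and Atp5j2 (0.28), also rose. But both other probe sets of Atp5a1, which were bright too, had the opposite sign, with -0.07 among their changes. With the mean of their probe sets Ndufa3 (0.13), Atp5a1 (0.09) and Atp5j2 (0.11) did not pass, nor did Ndufb9 (-0.26, against -0.53) and Ndufa10 (-0.47, against -0.62). Sdha, the catalytic subunit of complex II, gave 2436 and 2327 at 3 mM and 1948 and 1790 at 11 mM and fell by 0.35 (SE 0.11, adjusted p = 0.0225), or by 0.18 with the mean of its probe sets. Atp5g2 fell by 0.37, and the mean of its 3 probe sets gave 0.12.

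At 5.5 against 3 mM in old islets, 14 of the 86 and 2353 of all 12580 genes had an unadjusted p under 0.05 in limma. Ndufa4 was the only one of the 86 that passed, where 4.69% of all genes did. That call was lost without any of the 4 arrays, which left a count of 0. At 11 mM, Ndufa4, Ndufa1, Ndufaf4, Ndufb10, Ndufs7 and Atp5md kept their call whichever array was left out, while Ndufs8, Ndufa3, Atp5g3, Atp5l, Atp5a1, Atp5j2, Sdha, Atp5g2, Atp5mpl and Cyc1 lost it without at least 1 array, for each of them replicate 1 of old islets at 3 mM. The count of 23 became 11 without replicate 1 and 15 without replicate 2 of old islets at 3 mM, and 9 where young islets at 11 mM were fitted as a single group. Of the 9 beta cell markers 7 rose at 11 mM, with changes from -0.03 (Ins2) to 2.9. Their sums were 21454 to 23198 at 3 mM and 39109 to 47397 at 11 mM, and 1 of 5 endothelial and 1 of 8 acinar markers fell. Their part in the changes was not tested. Of the 76 mitochondrial ribosome genes 24 fell and 3 rose, Surf1 fell by 1.04 (SE 0.12), Fh1 rose by 1.12 (SE 0.12), and Nrf1 and Yy1 fell by 0.54 (SE 0.14) and 0.68 (SE 0.13). Nrf1 gave 216 and 208 at 3 mM, 308 and 258 at 5.5 mM and 143 and 138 at 11 mM, so that it was highest at 5.5 mM. Atpif1, the inhibitor of the ATP synthase and no member by its symbol here, rose by 0.42 in old islets (SE 0.13, adjusted p = 0.0231) and by 0.37 in young islets at 16 mM (SE 0.13, adjusted p = 0.0382).

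The culture itself was compared with fresh islets. Most calls were made in old islets at 3 mM against fresh old islets, where 33 of the 86 were higher and 4 lower (38.4% and 4.65%), against 16.6% and 18.5% of all genes. The median change was 0.23, and that of all genes -0.06. Among the higher genes were 14 of 27 accessory subunits of complex I, 5 of 8 assembly factors, 3 of 6 core subunits, 4 of 9 genes of complex III, 4 of 17 of the ATP synthase, 2 of 15 of complex IV and 1 of 4 of complex II. This comparison shares the old arrays at 3 mM with the glucose comparison, so its changes are not independent of those above.

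In fresh old islets Ndufaf4 gave 338 and 281, and it was 681 and 728 at 3 mM (change 1.15, SE 0.12, adjusted p = 4.33e-07). Atp5md rose by 2.55 (SE 0.27, adjusted p = 6.4e-07). Ndufb10 gave 1005 and 973 fresh and 2387 and 2181 at 3 mM, a change of 1.19 (SE 0.13, adjusted p = 6.09e-07). In these 3 genes both arrays at 3 mM lay above every fresh array and every array at 11 mM. Ndufa10, Ndufb9, Ndufs7, Ndufaf8, Ndufb5 and Cyc1 rose by 0.71 to 0.80, and Ndufa10 by 0.40 with the mean of its probe sets, which did not pass. Cox5a, a nuclear subunit at the matrix side of complex IV, gave 1562 and 1761 fresh and 2549 and 2661 at 3 mM, and rose by 0.65 (SE 0.14). Cox4i1 rose by 0.43, Sdhb by 0.45, Ndufv1, the NADH-binding subunit, by 0.45, and Uqcrc1, a core protein of complex III, by 0.40. Atp5g2 rose by 0.58, while the mean of its 3 probe sets was -0.07. The 4 genes that fell were Ndufa4 (-0.69), Ndufs8 (-0.54), Ndufa1 (-0.45) and Atp5a1 (-0.26, and 0.13 on another bright probe set). Atp5a1, Ndufa1 and Ndufs8 lost their call without replicate 1 of old islets at 3 mM, and Uqcrc1 without replicate 1 of fresh old islets. The count of 37 became 23 without replicate 1 of fresh old islets.

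Markers of other cells shifted far more between fresh and cultured old islets. All 8 acinar markers tested and all 5 endothelial markers fell at 3 mM, and the acinar sum went from 17697 to 35626 in fresh islets to 237 to 652. Of the 9 beta cell markers 7 fell, with changes from -3.06 to 0.27 (Ins2), and their sum went from 38465 to 50070 to 21454 to 23198. The part of these shifts in the changes was not tested. Of the mitochondrial ribosome genes 43 of 76 rose and none fell, and Surf1 rose by 1.17 (SE 0.12).

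Fewer of these genes passed between old islets at 11 mM and fresh old islets. In limma 5 of the 86 were higher and 0 lower, against 2.79% and 2.77% of all genes. Its unadjusted p was under 0.05 for 27 of the 86 and 2380 of all 12580 genes. The change was above 0 for 80 of the 86 and for 6597 of all 12580 genes, with medians of 0.20 and 0.02. Uqcrq of complex III gave 1102 and 1229 fresh and 1711 and 2167 at 11 mM, and rose by 0.72 (SE 0.17, adjusted p = 0.0131). With the mean of its 4 probe sets, of which 3 were dim, it changed by 0.27. Cox5a gave 2086 and 2880 at 11 mM and rose by 0.56 (SE 0.14, adjusted p = 0.0241), or 0.33 without replicate 2 at 11 mM. Ndufa3 (0.45), Sdhb (0.33) and Ndufs3 (0.33) also passed. The count was 0 without replicate 2 of old islets at 11 mM or replicate 1 of fresh old islets, 2 without replicate 2 of the latter, and 8 without replicate 1 at 11 mM. Acinar markers fell here as well (8 of 8), with a sum of 193 to 543 at 11 mM, as did 5 of 5 endothelial markers (1677 to 1720 fresh, 295 to 335 at 11 mM). Of 6 macrophage markers 2 were higher and 2 lower, and of 5 mesenchymal markers 2 were higher and 1 lower. Their part in the changes was not tested.

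In young islets at 11 mM against fresh young islets, 1 of the 86 genes passed, against 4.19% of all genes. That gene, Cox7c of complex IV, was dim (107 and 98 fresh, 41 and 45 at 11 mM) and fell by 1.01 (SE 0.21, adjusted p = 0.00625). With the mean of its probe sets the change was -0.57, with an offset of 64 it was -0.64, and it did not pass without replicate 1 of the fresh islets or replicate 3 at 11 mM. The median change was 0.03, with 49 genes above 0 and 37 below. Old minus young, the change from fresh to 11 mM was above 0 for 79 of the 86 and 6669 of 12580 genes. The median of this difference was 0.20 for the 86 and 0.02 for all genes. But limma called it for 0 of the 86 and 0.0238% of all genes. Its unadjusted p in limma was under 0.05 for 11 of the 86 and 977 of all genes. In young islets 7 of 8 acinar markers fell, with sums of 7930 to 14762 fresh and 348 to 650 at 11 mM. All 5 endothelial markers tested fell too (1588 to 1836 fresh, 307 to 334 at 11 mM), 2 of 6 macrophage markers were lower, and of 5 mesenchymal markers 1 was higher and 1 lower.

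**Figure D3:**
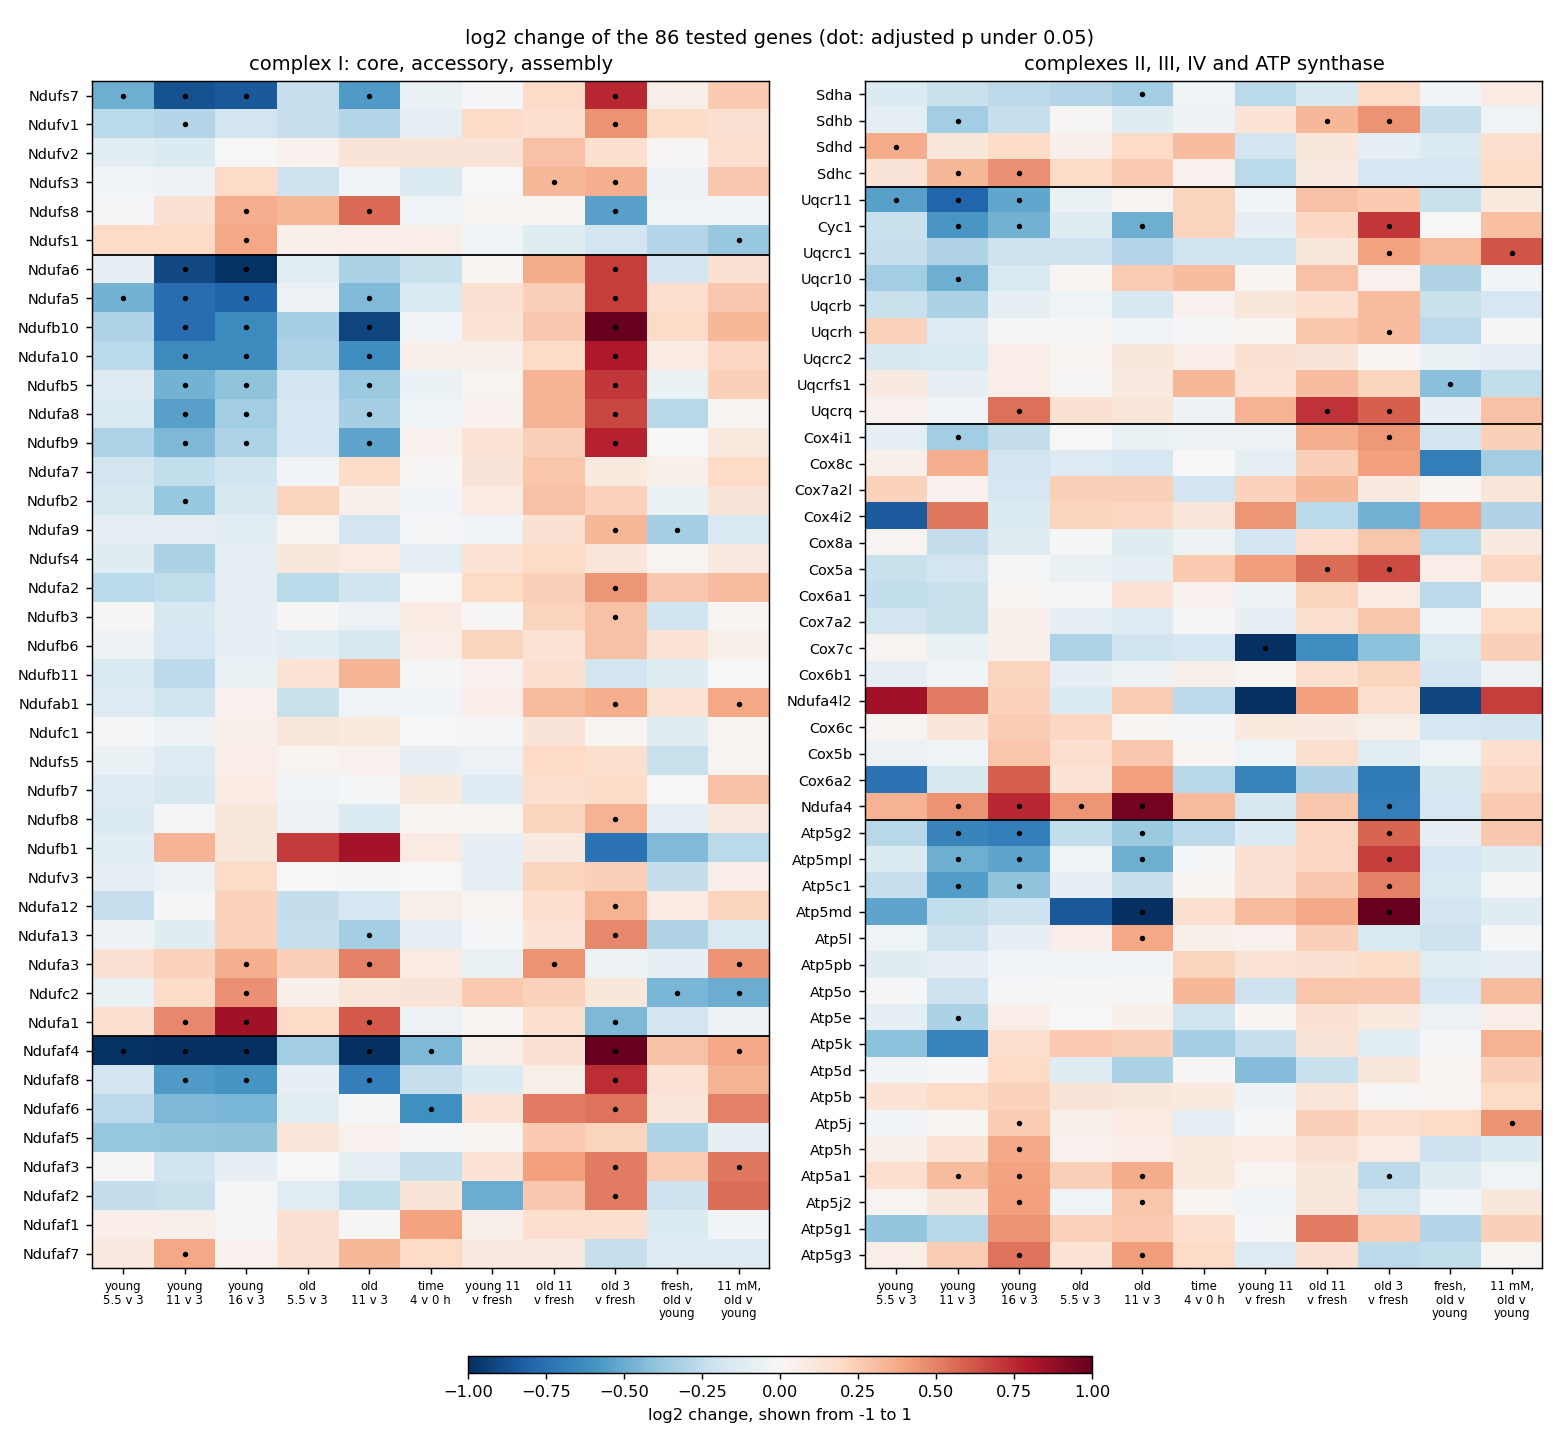
Change of each of the 86 tested genes (difference of log2(signal + 16), colour from -1 to 1, larger changes at the end colours) in 11 comparisons, in rows by role and in order of the change at 16 against 3 mM in young islets; dots mark an adjusted p in limma under 0.05. The column of old islets at 3 mM against fresh ones holds the most dots (33 higher, 4 lower), and those of young islets against fresh and of the time course at 4 h hold 1 and 2; columns that share arrays are not independent.

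Age was compared in fresh islets and after culture at 11 mM. In fresh islets 3 of the 86 genes were lower in old mice and 0 higher in limma, against 3.70% and 5.75% of all genes. Of the 86, 16 had an unadjusted p under 0.05 in limma, and of all 12580 genes 3139 did. Ndufc2 of the complex I membrane arm gave 2737 and 3299 in young and 2182 and 2167 in old islets, a change of -0.46 (SE 0.14, adjusted p = 0.0418). Uqcrfs1, the Rieske iron-sulfur protein of complex III, gave 1448 and 1398 in young and 1004 and 1113 in old islets (-0.42, SE 0.11, adjusted p = 0.0195), and Ndufa9 changed by -0.33 (SE 0.10, adjusted p = 0.0382). The share of lower genes was near that of all genes, and the median change was -0.12, or -0.05 under quantile normalization. The count was 0 without replicate 1 of the old or replicate 2 of the young fresh islets, and 1 without either other fresh array. Mesenchymal markers were lower in the same old islets, 4 of 5, with sums of 761 to 811 against 2000 to 2867, as were 3 of 5 alpha, delta and PP cell markers, and 1 of 8 acinar markers was higher. Their part was not tested.

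At 11 mM 6 genes were higher and 2 lower in old islets, against 10.0% and 5.59% of all genes, so that the share of higher genes (6.98%) was below that of all genes. Uqcrc1 gave 454 and 385 in young and 569 and 752 in old islets (0.63, SE 0.13, adjusted p = 0.00252). Atp5j, of the peripheral stalk, gave 1943 and 2011 in young and 2481 and 2947 in old islets (0.45, SE 0.09, adjusted p = 0.00157). Ndufaf3 (0.53), Ndufa3 (0.45), Ndufab1 (0.39) and Ndufaf4 (0.38) were also higher, but with the mean of the probe sets Ndufab1 gave -0.17 and Ndufa3 gave 0.26, and neither passed. With both array sets of young islets at 11 mM as a single group Ndufa3 gave 0.16 and Atp5j 0.25, which did not pass either. Ndufc2 gave 3386 and 3852 in young and 2440 and 2672 in old islets and was lower again (-0.50, SE 0.14, adjusted p = 0.0204). Ndufs1 was lower as well (-0.38). Uqcrfs1 and Ndufa9, lower in fresh old islets, did not pass at 11 mM (-0.25 and -0.15). The difference between the 2 age effects is the same contrast as the change from fresh to 11 mM, old minus young, given above. As stated there, limma called it for 0 of the 86 and 0.0238% of all genes. The unadjusted p of that difference in limma was under 0.05 for 11 of the 86 and 977 of all 12580 genes. The count of 8 became 1 without replicate 2 of old islets at 11 mM and 3 without either of the young arrays, replicates 3 and 4. Mesenchymal markers were again lower, 3 of 5, with sums of 1136 to 1278 against 3000 to 3165, and their part was not tested. Ppargc1a, a coactivator known to drive mitochondrial gene expression, was higher in old islets both fresh (1.34, SE 0.24) and at 11 mM (1.12, SE 0.24). Its signals were 74 to 135 in these old islets and 25 to 51 in these young ones. The medians of these young arrays were 38 to 42, and a signal under the median has no firm level.

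The time course asked how early the response begins. After 1 h at 11 mM limma called 0 of the 86 genes, against 0.262% of all genes. An unadjusted p under 0.05 in limma was found for 3 of the 86 and 770 of all 12580 genes. After 4 h 2 were lower and 0 higher, against 5.64% and 5.72% of all genes. Both were complex I assembly factors. Ndufaf4 gave 749 and 910 at 0 h, 677 and 760 at 1 h and 560 and 642 at 4 h, with no overlap between 0 and 4 h, and fell by 0.45 (SE 0.12, adjusted p = 0.0158). Its second probe set changed the other way, by 1.03, and the mean of both by 0.29. Ndufaf6 gave 206 and 253 at 0 h and 156 and 133 at 4 h, and fell by 0.61 (SE 0.18, adjusted p = 0.031). With the replicate block 6 of the 86 genes and 2152 of all 12580 passed at 4 h. The block added Ndufa4 (0.32), Ndufaf1 (0.40), Sdhd (0.31) and Uqcrfs1 (0.33) as higher. The count was 1 without replicate 2 at 0 h or at 4 h, and 0 without replicate 1 at 4 h. None of the other genes that were lower after 2 days at 11 mM passed at 4 h. Ndufs7 gave 1800 and 1848 at 0 h and 1853 and 1619 at 4 h, Ndufb10 gave 1219 and 1080 and then 1176 and 1069, and Cyc1 gave 2225 and 2305 and then 2862 and 2433, the last without overlap and higher at 4 h but not called (adjusted p = 0.36). Nrf1 had fallen by 1.02 at 4 h (SE 0.14, adjusted p = 0.000124), from 233 and 291 to 112 and 130, and Yy1 by 0.55 (SE 0.13).

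**Figure D4:**
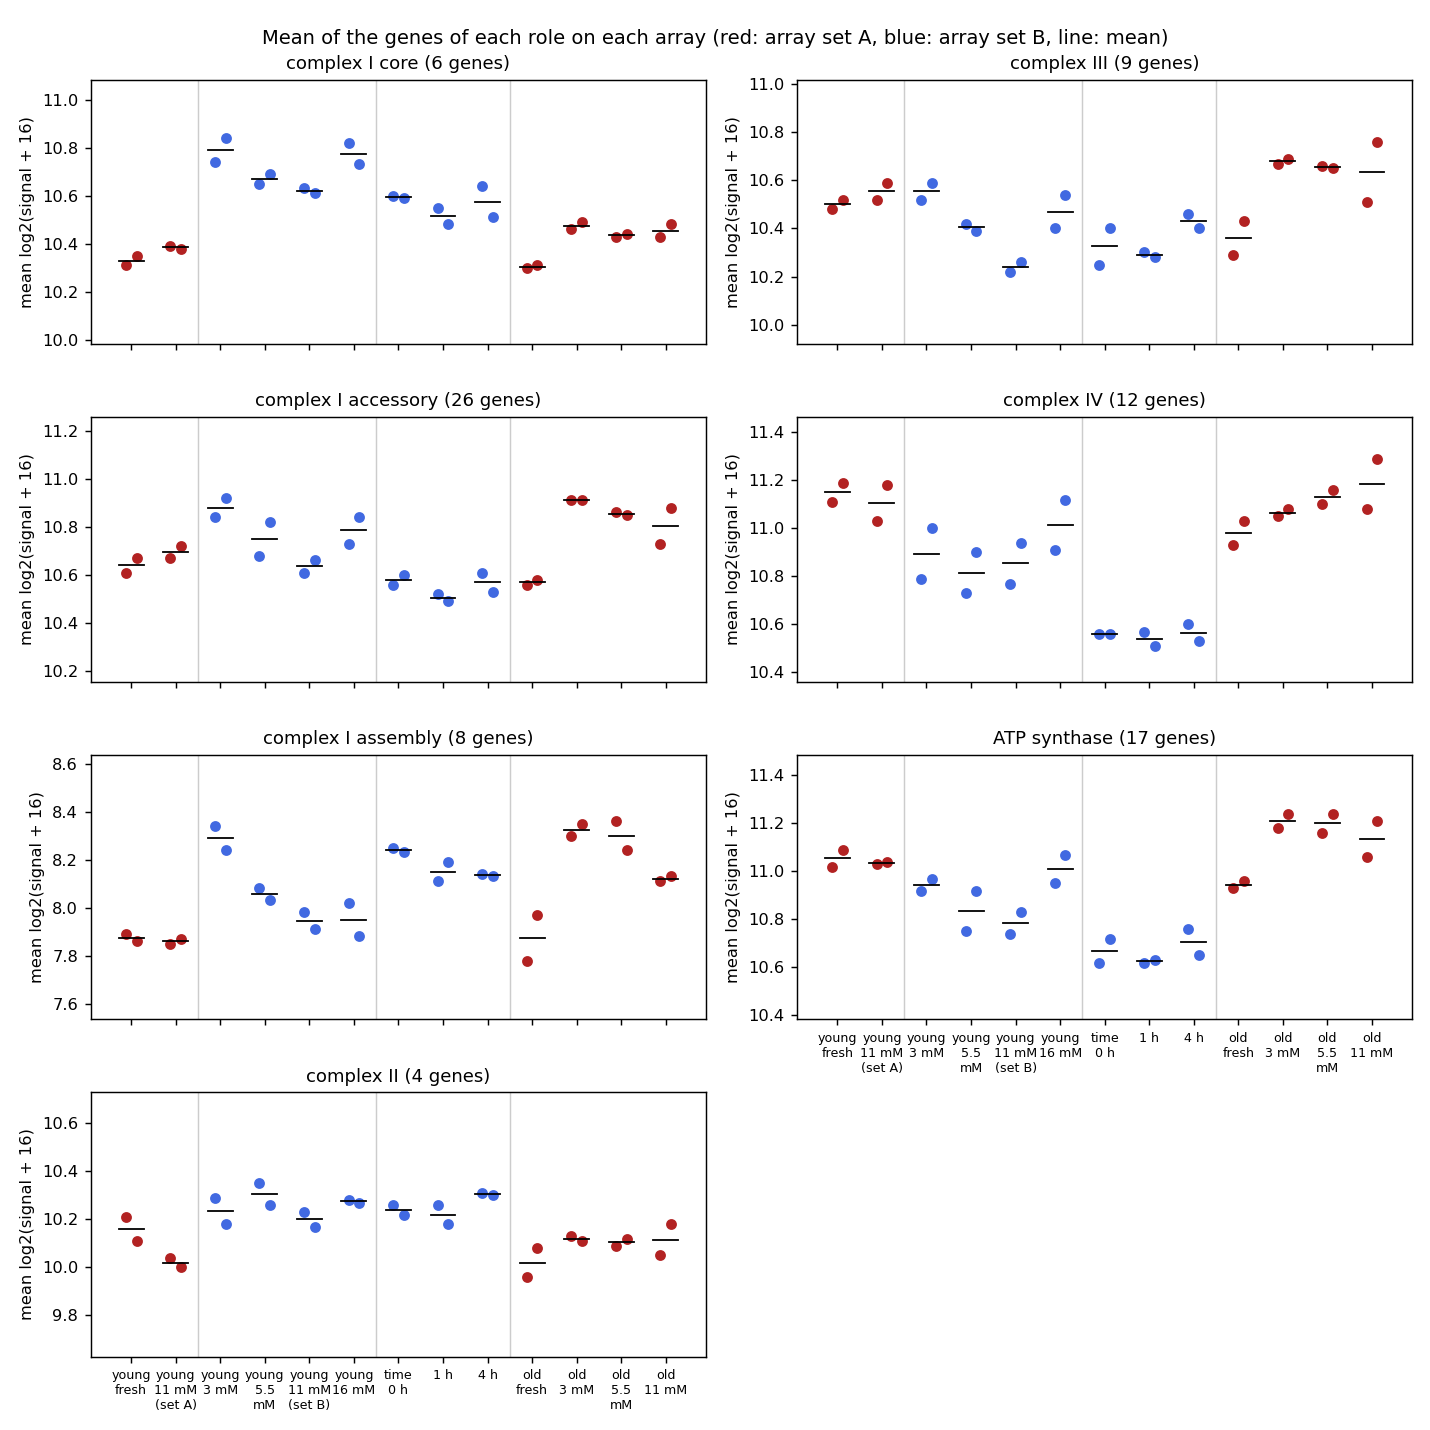
Mean log2(signal + 16) of the genes of each role that were above the array median on all 26 arrays, for each array by group, with a line at the group mean; each panel spans 1.1 log2 units, and red (set A) and blue (set B) points are not comparable. Over the arrays the means spanned between 0.39 (complex II) and 0.78 (complex IV), and the mean of the assembly factors was 8.24 and 8.34 in young islets at 3 mM and 7.91 and 7.98 at 11 mM in set B.

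Means over a complex were also taken. Over the genes above the array median on every array, the mean log2 signal of a role spanned 0.39 (complex II) to 0.78 (complex IV) over all 26 arrays, with both array sets in that span. Complex II had 1 gene higher and 1 lower in young islets at 11 mM. Some central subunits made no call: Atp5b, the beta subunit of the ATP synthase, passed in none of the comparisons, and its signals ranged from 2124 to 4287. Cox5b and Uqcrc2 passed in none either.

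Several genes of complex IV exist as a ubiquitous form and a form known from muscle, lung or testis. Cox4i1 was above the array median on all 26 arrays, and the lung form Cox4i2 on 4 (signals of 3 to 48). The muscle forms Cox7a1 and Cox8b and the testis forms Cox6b2 and Cox7b2 were above it on none, with signals up to 36, 10, 30 and 15. Cox8c, a form of subunit VIII known from testis, was above it on all 26 arrays with signals of 54 to 150. Cox6a2, the form of heart and skeletal muscle, was above it on all 26 arrays with signals of 346 to 1549, but passed in no comparison. Ndufa4l2, the relative of Ndufa4 that is known to respond to hypoxia, was above the median on 2 arrays. Array medians were 28 to 42, so a signal under them has no firm level. Of the 86 genes 55 passed in at least 1 of the 15 comparisons and 31 in none. The same count was not made over all genes, so it marks nothing particular to the 86.

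Other probe sets of a gene were compared by their direction. Among genes that passed, 14 of 15 other probe sets above the array median on all 26 arrays had the same sign as the chosen one in young islets at 11 mM, 19 of 21 at 16 mM, 16 of 18 in old islets at 11 mM and 20 of 21 in old islets at 3 mM against fresh. Those with the opposite sign were of Atp5a1 and, at 16 mM, Atp5j2. In young islets at 5.5 mM 3 of 4 had the same sign and at 4 h 0 of 1, the exception at both being Ndufaf4. In old islets at 11 mM against fresh, old against young fresh islets and at 11 mM, all 3, 2 and 4 had the same sign.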

How the data were processed

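Gene expression was measured on Affymetrix arrays with 45101 probe sets, from 50 ng of RNA and 2 cycles of cDNA synthesis per the labels' protocols. The deposited intensities are linear MAS5 signals, per the submitters' processing notes, and their mean without the top and bottom 2% was 150 on every array, so array totals hold no depth and the number of arrays limits the precision. Gene names came from the platform annotation: 34945 probe sets had 1 symbol, 932 several, 9160 none and 64 were controls, and 34741 symbols were updated through their Entrez number. Genes on probe sets with several symbols or none are not analysed here.

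Signals were taken as log2(signal + 16), and a probe set was kept where at least 2 arrays gave it a signal over their own median, with the brightest over all arrays standing for a gene. limma 3.58.1 in R 4.3.3 (eBayes with an intensity trend) was fitted on all genes with 13 means, the 12 groups with young islets at 11 mM parted by array set at a Gapdh ratio of 0.6. The Benjamini-Hochberg adjustment ran over all genes, separately in each of 15 comparisons. The fit was tested on simulated data. For each comparison the 5 largest rises and 5 largest falls among called genes with replicates apart were named (10 each for young islets at 16 mM and old islets at 11 mM against 3 mM), with a set list of central subunits and isoforms; other genes were named after their values were seen. The genes, marker lists, pathway lists and motifs were chosen with earlier results of these data known.

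Replicate numbers paired the arrays where same-numbered deviations from the group mean correlated over 0.1 in every pair of groups, which held for cultured young islets (r of 0.17 to 0.42) and the time course (0.55 to 0.63) but not for old islets (0.056 to 0.2). The main fit left the pairing of the young arrays out, so it can miss changes that the replicate block calls. Alternatives were offsets of 1 and 64, no filter, quantile normalization and no intensity trend. Others were the mean of the probe sets, 12 group means, the replicate block and leaving out each array.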

Additional observations from a re-analysis of the deposited data

Results flagged for a closer look

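Each of the 86 genes was examined for an array far from the others among the 4 of young islets at 11 mM, and 1 was flagged, while chance flags about 1 in 20 such groups. Uqcrc2, a core protein of complex III, gave 2468, 2450, 2518 and 2996 on replicates 1 to 4, and the gap of the highest array was 0.875 of the range, above Dixon's critical value for 4 samples. That gap lies between replicates 3 and 4, both in array set A, while replicates 1 and 2 lie in set B. Its cause was not tested.

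The response of Atp5md to 11 against 3 mM glucose differed between the ages, old minus young, by -1.92 on the log2(signal + 16) scale (SE 0.38, adjusted p = 0.0469 in limma). Over all other settings and left-out arrays its adjusted p was 0.0037 to 0.226. Age and array set cannot be told apart in it.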

How the results depend on the processing

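Of 120 counts of called genes under settings other than a left-out array, 86 were within 1.5 times the reported count, and of 68 counts without 1 array, 31 were. With 12 group means the count was 1 for young islets at 5.5 against 3 mM, 16 at 16 against 3 mM, 0 for old islets at 5.5 and 9 at 11 against 3 mM, 1 for old islets at 11 mM against fresh, 0 and 5 for old against young fresh and at 11 mM, 0 at 4 h, and 0 for the difference between ages at 11 against 3 mM. With the replicate block it was 8 for young islets at 5.5 against 3 mM, 3 at 16 against 11 mM, 6 for old islets at 5.5 against 3 mM, 4 and 12 for young and old islets at 11 mM against fresh, 8 and 14 for old against young fresh and at 11 mM, 6 at 4 h and 3 for the difference between ages. The numbers did not pair the old arrays, so those counts are hints at most. Without the filter the count was 0 for old islets at 5.5 mM, 2 for old islets at 11 mM against fresh and 0 for the difference between ages. Without the intensity trend it was 0, 1 and 0 in the same order, 2 for young islets at 11 mM against fresh and 1 for fresh islets by age. Quantile normalization gave 2 for either age at 11 mM against fresh, an offset of 64 gave 2 for young islets there, and an offset of 1 gave 0 for the difference between ages. With the mean of the probe sets it was 2 for old islets at 5.5 mM, 1 at 1 h, 4 at 4 h and 0 for the difference between ages.

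Without 1 array the counts ranged from 1 to 4 for young islets at 5.5, 16 to 20 at 11 and 18 to 21 at 16 against 3 mM, 0 to 1 at 16 against 11 mM, 0 to 0 and 11 to 17 for old islets at 5.5 and 11 mM, 0 to 1 and 0 to 8 for young and old islets at 11 mM against fresh, 23 to 31 for old islets at 3 mM against fresh, 0 to 1 and 1 to 7 for age fresh and at 11 mM, 0 to 0 and 0 to 2 at 1 and 4 h, and 0 to 1 and 0 to 0 for the differences between ages. Every such fit assumes that a lone array varies like the others. Of 97 results for single named genes, 26 kept their call under every alternative, 13 lost it only without an array and 58 under at least 1 other setting. A change turned its sign in 5 cases: Sdhc in young islets at 11 mM with 12 group means (-0.09) and, with the mean of the probe sets, Atp5g2 in old islets at 11 against 3 mM (0.12) and at 3 mM against fresh (-0.07), Ndufab1 by age at 11 mM (-0.17) and Ndufaf4 at 4 h (0.29). With 12 group means young islets at 11 mM include set A arrays, while those at 3 mM are all of set B. Between the sets Sdhc differed at 11 mM by -0.84 (set A minus set B). The cause of the other shifts was not tested. Array medians of 28 to 42 limit what can be read of dimmer probe sets.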
